A study of Schizosaccharomyces pombe with 6 samples.

Results

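The genes described here are the 137 of 5160 entries in the deposited table whose systematic names place them on 16 sequenced clones near the ends of fission yeast chromosomes I and II, after 28 members of other families on the same clones were left out. The families left out are the DUF999 and 5Tm proteins, the helicase genes tlh1 and tlh2, the pfl adhesins, the ght hexose transporters, adh4 and aat1. The rule of membership uses names and descriptions and no measured value, but it was chosen with earlier results of these data known. Poly(A) RNA of whole Schizosaccharomyces pombe cells was sequenced from a dsk1 mutant (3 libraries) and the wild type (3 libraries), which is the only contrast of the study. The series text calls the mutant dsk1Δ, a deletion, whereas its genotype label says knockdown. The neutral name dsk1 mutant is used throughout. The labels used here give no strain background, other allele, growth condition or culture age, and do not say that the 3 libraries of a genotype came from separate cultures. P-values therefore measure only the spread between these libraries, which may be technical.

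The dsk1 gene encodes a kinase that phosphorylates SR-type splicing factors. Fission yeast subtelomeres, the regions next to the telomere repeats, carry heterochromatin close to the end and a compact, knob-like chromatin further in, and many of their genes are weakly transcribed in growing vegetative cells and raised by nitrogen limitation or other stress. They are rich in membrane transporters, in enzymes that use alternative carbon and nitrogen sources, and in recent duplicates shared between the ends. Because duplicates are near-identical, short reads cannot always be assigned to one copy.

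The dsk1 transcript itself had 13.7, 11.3 and 11.9 CPM (counts relative to the library total, scaled by the trimmed mean of M values, TMM) in the mutant libraries, against 99.4, 102 and 99.96 CPM in the wild-type libraries. It was 8.17-fold lower in the mutant (log2 fold change -3.03, SE 0.13, adjusted p = 1.34e-04), and the groups did not overlap. Library totals were 15700362 to 19020530 counts. Wild-type replicate 2 stood apart: its score on the first principal component (60.1% of the variance) was 37.9, where the mutant libraries scored -19.6 to -13.1 and wild-type replicates 1 and 3 scored 9.54 and 2.29. Of the lists of other cell states, 0 of 11 tested meiosis and sporulation genes and 1 of 11 tested mating genes, lower in the mutant, were called. Over all 4987 genes tested, 1.58% were called lower and 0.441% higher. Among 5 nitrogen starvation genes, isp4 was called higher (log2 fold change 1.45). Those not called were isp7 at 0.96, ste11 at 0.30, isp6 at 0.29 and fnx1 at -0.37. The summed level of the list was 1209 to 1478 CPM in the mutant libraries and 862 to 904 CPM in the wild-type libraries. Within it, isp7 alone averaged 570 CPM in the mutant and 293 CPM in the wild type. The part of this list in the results on chromosome ends was not tested.

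Most of the genes were weakly expressed. Their median level over the 6 libraries was 10.2 FPKM (fragments scaled by transcript length and library total, and so comparable between genes), with quartiles of 1.18 and 36.2 FPKM, against a median of 40.3 FPKM for the 4995 genes on no such clone. The highest was pdc101 on SPAC1F8, a pyruvate decarboxylase of the fermentation pathway, at 1305 FPKM. Of the 137, 110 passed the filter on low counts and were tested, and 2 of the remaining 27 (SPAC186.08c and SPBC1683.06c) had no count in any library.

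Among the tested genes, 10 of 110 (9.09%) were called lower in the mutant at an adjusted p under 0.05, where 1.58% of all 4987 genes tested were called lower. A single gene of the 110 (0.909%) was called higher, against 0.441% of all genes tested. The other 99 were not called. Before adjustment, p was under 0.05 for 34 genes lower and 9 genes higher in the mutant. Over all 4987 genes tested, it was under 0.05 for 672 genes lower and 459 genes higher. RNA was taken from whole cultures, so a change in all cells and a change in the share of cells that express a gene cannot be told apart. The median log2 fold change was -0.29, against 0.01 for the genes on no such clone and -1.57 for the 23 tested members of the left-out families. All mutant libraries lay below all wild-type libraries for 36 of the 110 genes, where 16.6% of all genes tested did so, and above them for 10, where 15.5% of all genes did so. The DESeq2 Wald test called 25 members lower and 3 higher, against 7.1% lower and 4.01% higher of all genes that it gave an adjusted p. In the authors' deposited table, 15 of the 137 had an adjusted p under 0.05 with at least a 2-fold fall, where 2.11% of all entries did, and 1 had such a rise, where 0.504% did. Differences between these shares were not tested. For each gene called by edgeR, the deposited adjusted p equals the lowest one among the other fits made here. The deposited result is therefore not counted as a separate analysis, and its count also uses a 2-fold cut that the Wald count does not.

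The calls were lost mainly when a mutant library or wild-type replicate 1 was left out. Without mutant replicate 1 or 3, 0 of the members were called, and without mutant replicate 2 or wild-type replicate 1 the calls were 1 and 2, all lower. With wild-type replicate 2 left out, 30 of 114 tested members were called lower and 3 higher, against 301 and 165 of all 4999 genes tested. With wild-type replicate 3 left out, 16 of 112 were called lower and 1 higher, against 155 and 24 of all 4995 genes tested. All 11 original calls were among those made without wild-type replicate 2 or without wild-type replicate 3. Over all genes tested, the same fits called 2 lower and 1 higher at the fewest and 301 lower and 165 higher at the most.

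**Figure D1:**
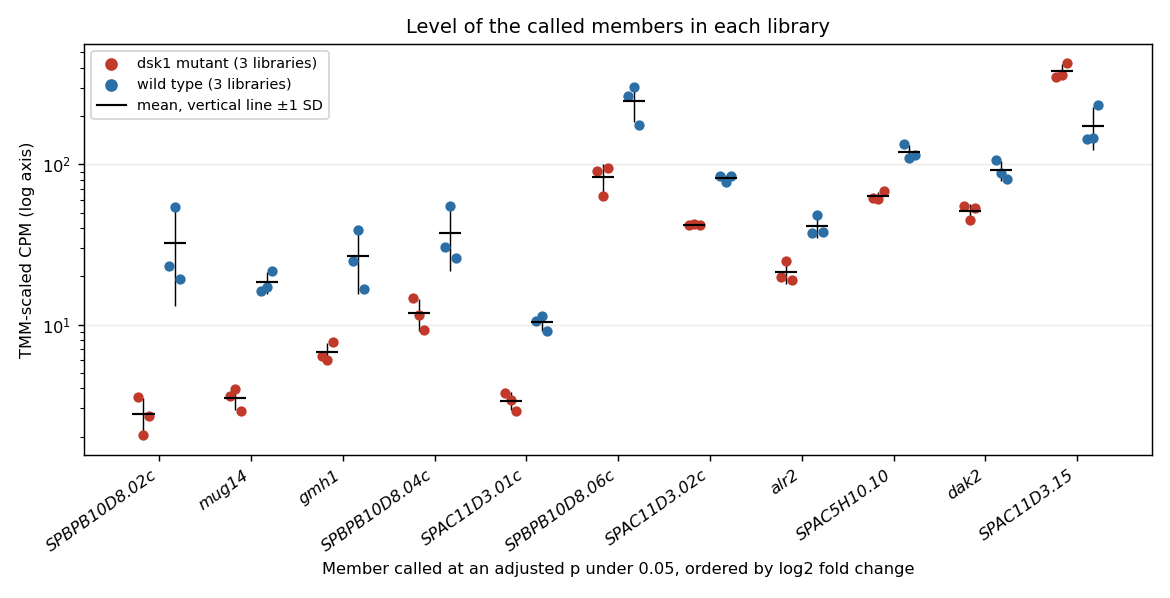
Level of the 11 called genes in each library, as TMM-scaled CPM on a log axis, with mutant libraries in red on the left and wild-type libraries in blue on the right of each gene, the group mean as a bar and 1 SD as a vertical line. In each gene the mutant and wild-type libraries lie apart, with SPAC11D3.15 the gene higher in the mutant (354 to 431 CPM in the mutant and 144 to 235 CPM in the wild type).

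By chromosome arm, the left arms held all calls. On the left arm of chromosome I, 5 of 49 tested genes were called lower and 1 higher, with a median log2 fold change of -0.37, or -0.21 without wild-type replicate 2. On the left arm of chromosome II, 5 of 35 were called lower and 0 higher, with a median of -0.39. Neither right arm held a call: the 11 tested genes of chromosome II had a median of -0.28, and the 15 of chromosome I had a median of 0.15 with 5 genes below 0. On the right arm of chromosome I the direction depended on single wild-type libraries, as its median was -0.11 without wild-type replicate 2, with 2 genes then called lower and 1 higher, and 0.60 without wild-type replicate 3, with 0 calls. On the right arm of chromosome II, 4 of 12 tested genes were called lower without wild-type replicate 2 and the median was -0.52. Without wild-type replicate 3 the median was -0.11. Over all 4999 genes tested, the fit without wild-type replicate 2 called 301 lower and 165 higher. On the right arm of chromosome II that library was the lowest wild-type library for 9 of 10 tested genes of SPBPB2B2. Leaving it out raises their wild-type means, so the lower calls there are no independent support for a fall. Whether the arms differ from each other was not tested.

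**Figure D2:**
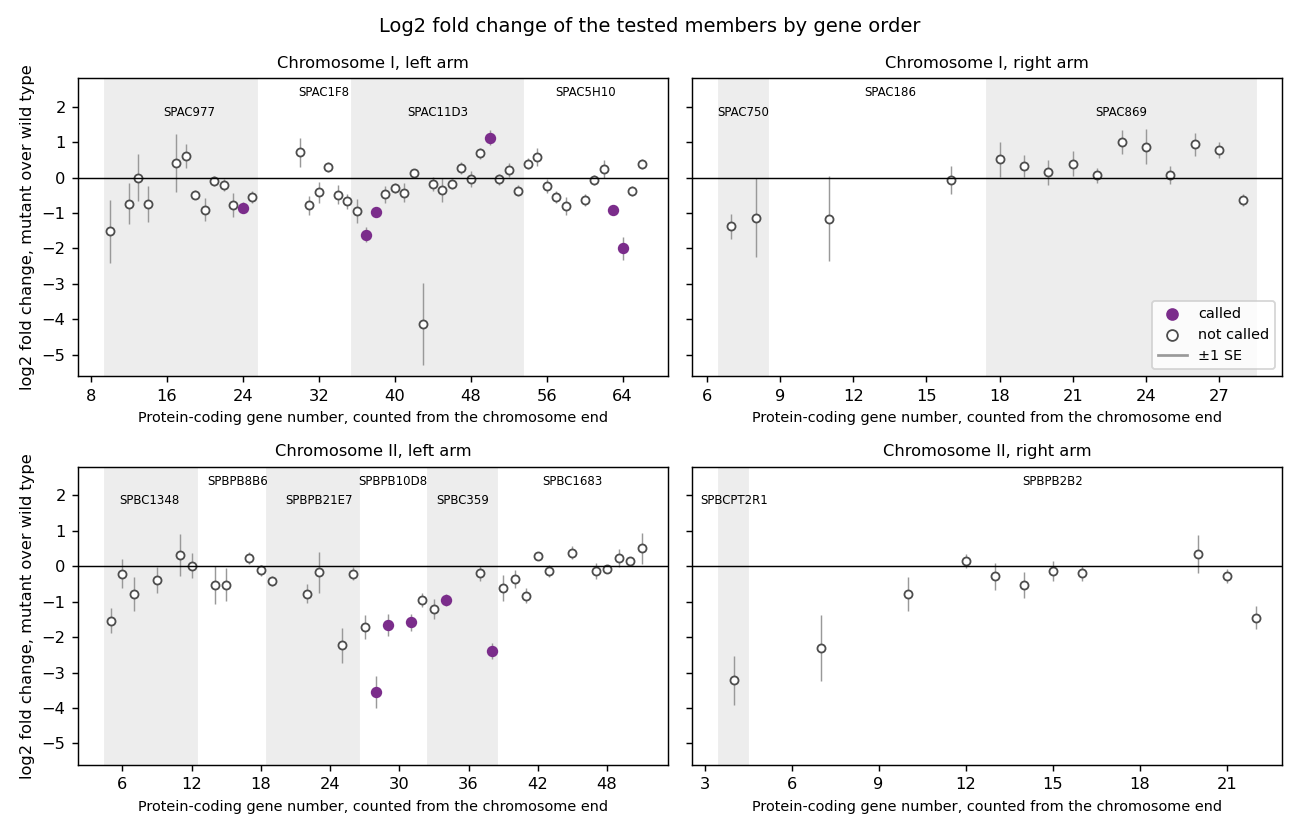
Log2 fold change, mutant over wild type, of the 110 tested genes against the number of the protein-coding gene counted from the chromosome end, for each arm, with bars of 1 SE, filled points for called genes and shading that separates neighbouring clones. Genes 27 to 38 of the left arm of chromosome II lie below 0, whereas 10 of the 11 genes of SPAC869 on the right arm of chromosome I lie above it.

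A run of low genes lay on the left arm of chromosome II, where the adjoining clones SPBPB10D8 and SPBC359 hold protein-coding genes 27 to 38 from the end. These 12 genes comprise 10 of the genes described here plus aat1 and pfl7. All 11 tested genes of the run had log2 fold changes below 0, with a median of -1.66, and 6 were called lower, 1 of them the left-out amino acid transporter aat1 (log2 fold change -2.60). The run was picked out after its values had been seen. Its summed level was 351, 311 and 299.6 CPM in the mutant libraries and 762, 1152 and 591 CPM in the wild-type libraries, so that every mutant library lay below every wild-type library. Without wild-type replicate 2, its highest library, the medians of the 2 clones were -1.41 for SPBPB10D8 and -0.81 for SPBC359.

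SPBPB10D8.02c, a predicted arylsulfatase of the kind that frees sulfate from organic esters, had 3.52, 2.05 and 2.70 CPM in the mutant libraries and 23.1, 54.6 and 19.3 CPM in the wild-type libraries. It fell 11.7-fold in the mutant (log2 fold change -3.55, SE 0.46, adjusted p = 0.0208), and the groups did not overlap. Its call was lost without any single mutant library, with adjusted p of 0.101 to 0.135. The neighbouring SPBPB10D8.01, a predicted cysteine transporter, had 4.62, 3.55 and 2.22 CPM in the mutant and 11.01, 15.1 and 8.15 CPM in the wild type. With a log2 fold change of -1.71 and an adjusted p of 0.0512 it missed the threshold, although the groups did not overlap.

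The next 4 genes, SPBPB10D8.04c to SPBPB10D8.07c, are predicted transmembrane transporters in tandem on the minus strand, and their coding sequences of 1140 bases are identical in the reference. Their first 90 bases are shown because no base in them, or in the rest of the coding sequence, tells the copies apart, so no letter is in capitals.
SPBPB10D8.04c: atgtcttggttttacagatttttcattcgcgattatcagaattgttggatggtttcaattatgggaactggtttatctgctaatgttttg
SPBPB10D8.05c: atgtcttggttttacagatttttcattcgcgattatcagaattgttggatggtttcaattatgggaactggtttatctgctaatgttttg
SPBPB10D8.06c: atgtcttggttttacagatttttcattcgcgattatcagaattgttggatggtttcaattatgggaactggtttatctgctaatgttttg
SPBPB10D8.07c: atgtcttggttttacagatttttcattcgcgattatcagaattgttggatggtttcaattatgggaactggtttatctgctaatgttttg

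How the counts fell on single copies differed between libraries even within a genotype. SPBPB10D8.05c had 164, 0 and 0 counts in the mutant libraries and 2, 1678 and 0 counts in the wild-type libraries, and was filtered out. Its share of the 4 copies was thus 14.4% in wild-type replicate 2 and 0.0221% in wild-type replicate 1. The values of single copies are therefore uncertain. As deposited, SPBPB10D8.06c (log2 fold change -1.58, adjusted p = 0.0298) and SPBPB10D8.04c (-1.66, adjusted p = 0.0495) were called lower, while SPBPB10D8.07c at -0.96 (adjusted p = 0.0571) was not. The sum of the 4 copies does not depend on that split. It was 251, 206 and 214 CPM in the mutant libraries and 540, 781 and 383 CPM in the wild-type libraries, with means of 223 ± 24.0 and 568 ± 200 CPM (SD, n = 3 each). The groups did not overlap, and with copies summed before the fit, a choice made after seeing the data, the sum was 2.54-fold lower in the mutant (log2 fold change -1.35, SE 0.25, adjusted p = 0.0456). The single-copy calls were lost without any single mutant library or wild-type replicate 1, with adjusted p of 0.0891 to 0.194. That of SPBPB10D8.04c was also lost without a filter on low counts, by limma or with the trend on transcript length removed (adjusted p of 0.0502 to 0.0554).

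**Figure D3:**
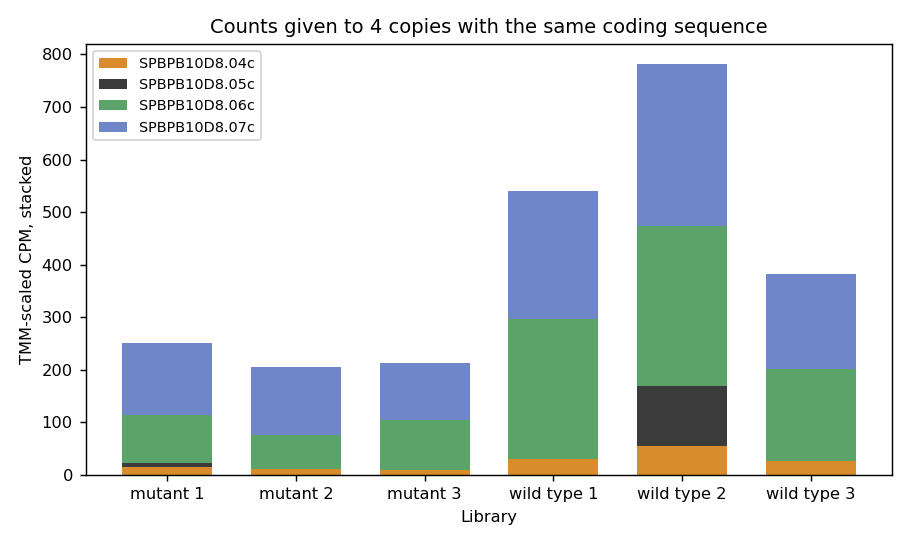
TMM-scaled CPM assigned to each of the 4 tandem transporter genes, stacked by library, with the 3 mutant libraries on the left and the 3 wild-type libraries on the right. The stacks reach 206 to 251 CPM in the mutant and 383 to 781 CPM in the wild type, and SPBPB10D8.05c, in dark grey, is visible in mutant replicate 1 and wild-type replicate 2 alone.

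On SPBC359, mug14, named as a gene upregulated in meiosis and annotated as an adducin, had 3.57, 3.98 and 2.90 CPM in the mutant libraries and 16.2, 17.3 and 21.6 CPM in the wild-type libraries. It was 5.25-fold lower in the mutant (log2 fold change -2.39, SE 0.21, adjusted p = 0.0056), the lowest adjusted p among the 110 genes. Its call was lost without mutant replicate 1 (adjusted p = 0.0696) or mutant replicate 3 (0.0917). The predicted alanine racemase alr2, an enzyme that interconverts L- and D-alanine, had 19.8, 24.9 and 19.01 CPM in the mutant and 37.4, 48.6 and 37.8 CPM in the wild type, and was called 1.94-fold lower (log2 fold change -0.96, SE 0.18, adjusted p = 0.0444). This call was lost without any single mutant library or wild-type replicate 1, with adjusted p of 0.121 to 0.259, and by limma (0.0654 to 0.0716). SPBC359.01, a predicted amino acid transporter, had 21.1, 22.2 and 18.9 CPM in the mutant and 37.2, 70.2 and 35.4 CPM in the wild type, without overlap but with an adjusted p of 0.0706. The ABC transporter abc3, between pfl7 and mug14, was near equal at 33.4, 37.2 and 27.4 CPM in the mutant and 39.1, 27.96 and 45.1 CPM in the wild type (log2 fold change -0.20, SE 0.21).

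On the left arm of chromosome I, SPAC11D3 carried 18 tested genes, of which 2 were called lower and 1 higher, around a median of -0.24 that became 0.01 without wild-type replicate 2. The adjoining genes SPAC11D3.01c and SPAC11D3.02c were called lower. SPAC11D3.02c, a predicted ELLA family acetyltransferase, had 42.1, 42.2 and 42.1 CPM in the mutant libraries and 84.9, 77.2 and 84.4 CPM in the wild-type libraries, with little spread in either group. It fell 1.95-fold (log2 fold change -0.96, SE 0.11, adjusted p = 0.0158). SPAC11D3.01c, a conserved fungal protein, had 3.77, 3.39 and 2.90 CPM in the mutant and 10.5, 11.4 and 9.11 CPM in the wild type and fell 3.06-fold (log2 fold change -1.61, SE 0.21, adjusted p = 0.0208). Neither gene was called without any single mutant library or wild-type replicate 1, with adjusted p of 0.0831 to 0.135.

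The one gene called higher was SPAC11D3.15, a predicted 5-oxoprolinase, the enzyme that opens the ring of 5-oxoproline to yield glutamate. It had 354, 361 and 431 CPM in the mutant libraries and 144, 146 and 235 CPM in the wild-type libraries, a 2.18-fold rise without overlap (log2 fold change 1.13, SE 0.21, adjusted p = 0.0464). Its neighbour SPAC11D3.14c carries the same annotation. It had 211, 223 and 162 CPM in the mutant and 114, 118 and 136 CPM in the wild type (log2 fold change 0.69, SE 0.15, adjusted p = 0.0661), again without overlap but past the threshold only in some fits, such as that without wild-type replicate 2 (adjusted p = 0.0334). The call on SPAC11D3.15 was lost when the trend of the values with transcript length was removed (adjusted p = 0.0702), by 2 of 3 limma fits (0.0504 and 0.0503) and without any single mutant library or wild-type replicate 1 (adjusted p of 0.135 to 0.198).

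SPAC11D3.06, a predicted MatE family transporter, had the lowest fitted value of all the genes described here, at -4.14 (SE 1.16, adjusted p = 0.106), and was not called. It had 3.17, 7.54 and 0 CPM in the mutant libraries and 39.3, 138 and 15.6 CPM in the wild-type libraries. In the reference all of its exon lies opposite toe4, a zinc-cluster transcription factor gene at 172, 147 and 162 CPM in the mutant and 138, 142 and 165 CPM in the wild type. The use of strand in counting is not given in the sources used here, so reads of the overlapping genes cannot be told apart. The same limit holds for all 11 called genes, at least 46.0% of whose exon length is covered by an annotated transcript on the other strand. That transcript is mainly a protein-coding gene for gmh1 and a non-coding RNA for the other 10. Such overlap was not particular to the called genes. Of the 137 genes described here, 110 had some, and 80 had at least 50% of their exon length covered.

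SPAC5H10 held 2 calls among 12 tested genes, both lower. The predicted galactosyltransferase gmh1, whose family adds galactose to the glycans of secreted and cell wall proteins, had 6.38, 6.03 and 7.75 CPM in the mutant libraries and 24.9, 39.1 and 16.7 CPM in the wild-type libraries. It was 4.0-fold lower in the mutant (log2 fold change -2.0, SE 0.32, adjusted p = 0.0317). The related gmh2, near gmh1 on the same clone, was at 302, 333 and 301 CPM in the mutant and 246, 203 and 265 CPM in the wild type (log2 fold change 0.39, adjusted p = 0.154). SPAC5H10.10, a predicted NADPH dehydrogenase, had 61.3, 61.0 and 67.8 CPM in the mutant and 133, 110 and 114 CPM in the wild type, a 1.88-fold fall (log2 fold change -0.91, SE 0.12, adjusted p = 0.0208). The second gene with that annotation, SPAC5H10.04, lay at -0.80 (SE 0.24, adjusted p = 0.122). Both calls were lost without any single mutant library or wild-type replicate 1, with adjusted p of 0.0858 to 0.177. The pantothenate synthesis genes pan6 and ecm31 on this clone were at -0.07 and 0.24, each within 1 SE of 0.

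SPAC977, the clone with 13 tested genes nearest the left end of chromosome I after SPAC212, had a median of -0.54, with 11 genes below 0 and 1 call. The called gene was dak2, a dihydroxyacetone kinase of glycerol use, at 54.6, 45.0 and 53.4 CPM in the mutant libraries and 106, 87.9 and 81.6 CPM in the wild-type libraries. It was 1.8-fold lower in the mutant (log2 fold change -0.85, SE 0.15, adjusted p = 0.0358), and was not called without any single mutant library or wild-type replicate 1 (adjusted p of 0.122 to 0.177) or by limma (0.069 to 0.0775). The sodium/proton antiporter gene sod2, which exports sodium and lithium, had 77.4, 96.7 and 82.9 CPM in the mutant and 120, 110 and 128 CPM in the wild type, without overlap (log2 fold change -0.48, adjusted p = 0.101). The predicted water channel SPAC977.17 lay at -0.54 (adjusted p = 0.129), also without overlap.

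Transporters, permeases and channels made up 34 of the 137 genes, more than any other group of roles, a grouping by description made after the values had been seen. Of the 29 tested, 24 were below 0, 2 were called lower and 0 higher, with a median of -0.48. Of all 110 tested members, 77 were below 0, 10 were called lower and 1 higher. In the whole set of 4987 genes tested, 2494 were below 0, 79 were called lower and 22 higher. Whether transporters differ from the other members was not tested. The 2 calls were SPBPB10D8.04c and SPBPB10D8.06c, tandem copies identical in coding sequence, whose single values are uncertain. SPBPB10D8.07c, identical to them, is also among the 24. Besides the tandem copies, the amino acid transporter SPBPB2B2.01 had 4.12, 3.01 and 4.72 CPM in the mutant libraries and 11.3, 14.5 and 6.71 CPM in the wild-type libraries (log2 fold change -1.46, adjusted p = 0.0681). The cationic amino acid transporter gene cat1 had 156, 149 and 172 CPM in the mutant and 230, 307 and 204 CPM in the wild type (log2 fold change -0.64, adjusted p = 0.0983). The predicted proline permease gene put4 had the opposite sign, with 218, 152 and 275 CPM in the mutant and 105, 139 and 133 CPM in the wild type (log2 fold change 0.77, adjusted p = 0.115). In cat1, put4 and SPBPB2B2.01 the groups did not overlap, yet none of the 3 was called.

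Of the 15 genes described as species-specific or uncharacterised that were tested, 14 lay below 0, 1 was called lower and the median was -0.77; SPBC1348.06c and SPBPB2B2.15, which have the same counts in every library, are both among the 14. The 15 tested sugar and central carbon enzymes had 2 genes called lower, gmh1 and dak2, and a median of -0.24. The galactose pathway genes gal1, gal7 and gal10 on SPBPB2B2 lay at 0.14, -0.14 and -0.28, each with an adjusted p of 0.670 or more. The glycolysis and fermentation genes eno102 and pdc101 lay at -0.41 and -0.48 (adjusted p = 0.139 and 0.322). The 11 tested enzymes of nitrogen compounds, which include alr2 and both 5-oxoprolinases, had 1 call in each direction and a median of 0.23. The 14 tested oxidoreductases and detoxification genes had 1 lower call and a median of -0.20. The 6 genes of DNA-binding transcription factors had 0 calls and a median of 0.17. For comparison, 77 of all 110 tested members lay below 0, 10 were called lower and 1 higher, and their median was -0.29. Whether these groups of roles differ from the other members was not tested.

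SPAC869, on the right arm of chromosome I, had 10 of its 11 tested genes above 0, a median of 0.40 and 0 calls. The largest was SPAC869.06c, a predicted cation-binding protein with an HHE domain, at 11.7, 6.14 and 12.3 CPM in the mutant libraries and 4.58, 6.65 and 3.68 CPM in the wild-type libraries (log2 fold change 1.01, SE 0.34, adjusted p = 0.146). Its groups overlapped. Wild-type replicate 2 was the lowest wild-type library in 7 of the 11 genes. Without it 8 were above 0, the median was 0.19 and 1 gene was called lower. SPAC869.06c was then called higher at 1.28 (adjusted p = 0.0443). For that gene wild-type replicate 2 was the highest wild-type library, so leaving it out lowers the wild-type mean. The call on SPAC869.06c is therefore no independent support for a rise.

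Nearer that end, the 8 genes from SPAC750.01 to SPAC186.03, genes 8 to 15 from the right end of chromosome I, were high in 1 wild-type library. Summed, they had 29, 140 and 39 counts in the mutant libraries and 50, 17 and 494 counts in the wild-type libraries, and 7 of the 8 had their highest count in wild-type replicate 3. SPAC750.01, an aldo/keto reductase, had 0.402, 2.58 and 1.42 CPM in the mutant and 0.655, 0.403 and 8.36 CPM in the wild type. SPAC186.07c, a predicted hydroxyacid dehydrogenase, had 0.502, 2.85 and 0.674 CPM in the mutant and 0.952, 0.0672 and 7.94 CPM in the wild type. The 2 fitted values, -1.13 and -1.16, became 1.44 and 1.35 without wild-type replicate 3, so no direction holds for them. This stretch was also chosen after its values had been seen.

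Libraries of a genotype often differed widely in these genes. The highest wild-type library was over 2-fold above the lowest for 39 of the 110 tested genes (35.5%), against 11.8% of the 4854 tested genes on no such clone. Among the mutant libraries this held for 17 genes (15.5%), against 2.29%. The difference between these shares was not tested, and levels differ between the sets. Wild-type replicate 2 was the lowest wild-type library for 58 genes (52.7%), against 45.4% elsewhere.

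**Figure D4:**
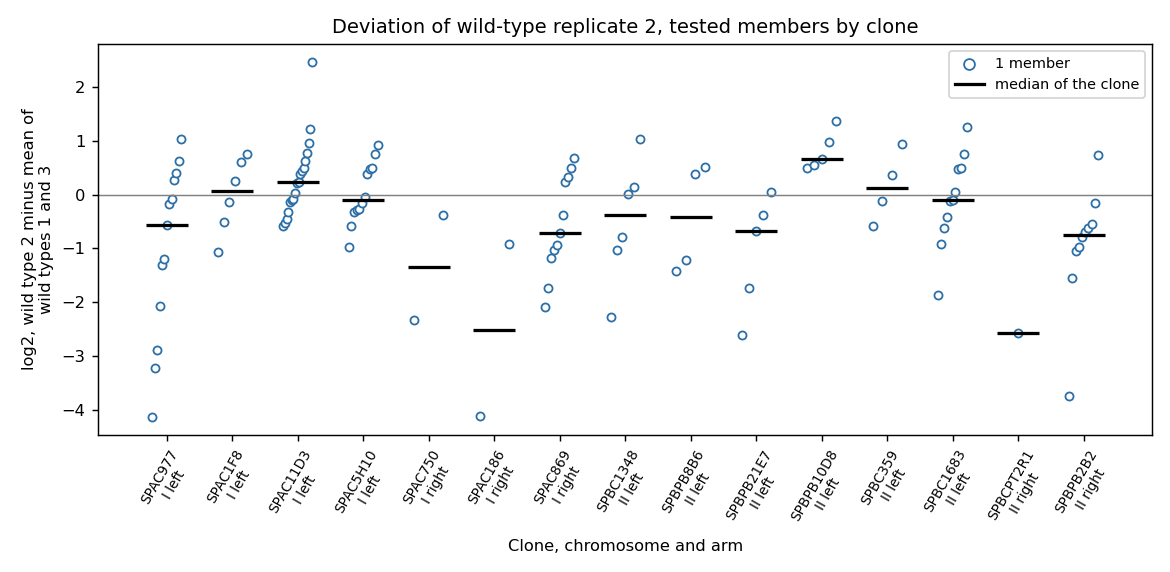
Difference on the log2 scale between wild-type replicate 2 and the mean of wild-type replicates 1 and 3 for each tested gene, by clone, with the clone's median as a bar. The median is 0.67 for SPBPB10D8 and -0.74 for SPBPB2B2, and single genes reach -4.13 (SPAC977.18).

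Several genes close to the ends were low in wild-type replicate 2. SPAC977.18, a conserved fungal protein and gene 10 from the left end of chromosome I, had 70.5, 147 and 79.8 CPM in the mutant libraries and 278, 22.3 and 551 CPM in the wild-type libraries. SPBPB2B2.18, gene 7 from the right end of chromosome II, shares 88.0% of 108 aligned residues with it and had 0.904, 3.77 and 2.22 CPM in the mutant and 11.4, 1.08 and 21.6 CPM in the wild type. SPBCPT2R1.02, gene 4 from that end, had 1.21, 2.31 and 1.48 CPM in the mutant and 17.4, 3.50 and 25.7 CPM in the wild type. Wild-type replicate 2 was the lowest wild-type library in each, below the mutant libraries in SPAC977.18, among them in SPBPB2B2.18 and above them in SPBCPT2R1.02. None of the 3 was called with all libraries (log2 fold changes of -1.52, -2.31 and -3.22, adjusted p = 0.335, 0.196 and 0.0623), and all were called lower without that library, at -2.06, -2.85 and -3.69 (adjusted p = 0.0107, 0.0104 and 5.60e-04). The same held for aes1, described as an enhancer of RNA-mediated gene silencing, which had 16.6, 36.8 and 31.5 CPM in the mutant and 149, 51.5 and 198 CPM in the wild type. Its log2 fold change was -2.23 (SE 0.50, adjusted p = 0.0681), and -2.62 without wild-type replicate 2 (adjusted p = 0.00174). These genes are set out here for their low level in wild-type replicate 2, and leaving that library out raises their wild-type mean. The calls made without it are therefore no independent support for a fall.

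Near-identical copies, at least 90% identical in protein over at least 80% of the length, were shared among 32 of the 137 genes in 13 groups. A further description of repeats, the share of 50-base windows found elsewhere in the genome, was 5% or more for 40 genes and 0 for 96. Where copies are identical, the deposited counts can be too: SPAC212.12 on the left end of chromosome I and SPAC750.07c on its right end both had 0, 0 and 0 counts in the mutant libraries and 5, 2 and 8 counts in the wild-type libraries. SPBC1348.06c and SPBPB2B2.15 shared 12, 7 and 14 counts in the mutant and 28, 10 and 17 counts in the wild type, and SPBC1348.15 and SPBCPT2R1.03 shared 0, 0 and 0 counts and 2, 1 and 2 counts. Such pairs hold 1 measurement, not 2.

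Copies that differ at a few bases can in part be told apart by reads. The predicted methyltransferases SPBC1348.04, SPAC977.03 and SPAC750.03c sit at 3 different chromosome ends and differ at 3 of 438 coding bases. Their first 75 bases, which hold 2 of the differing positions (in capitals), are shown for that reason.
SPBC1348.04: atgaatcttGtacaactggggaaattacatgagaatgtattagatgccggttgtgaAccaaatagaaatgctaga
SPAC977.03: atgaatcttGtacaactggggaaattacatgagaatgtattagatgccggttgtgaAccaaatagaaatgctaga
SPAC750.03c: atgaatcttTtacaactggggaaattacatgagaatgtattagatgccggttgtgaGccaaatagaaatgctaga

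SPBC1348.04 had 1.56, 2.26 and 1.55 CPM in the mutant libraries and 6.85, 3.02 and 5.75 CPM in the wild-type libraries, without overlap (log2 fold change -1.54, adjusted p = 0.0711). Summed over the 3 copies, the level was 2.76, 3.93 and 3.17 CPM in the mutant and 9.17, 3.70 and 10.1 CPM in the wild type (log2 fold change -1.22, SE 0.39, adjusted p = 0.131). In the sum, wild-type replicate 2 lay among the mutant libraries.

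The asparaginase genes SPAC977.12 and SPBPB8B6.05c, whose enzymes release ammonia from asparagine, differ at 13 of 1071 coding bases, all between bases 927 and 1056. The last 151 bases of each are shown because they hold every difference (in capitals).
SPAC977.12: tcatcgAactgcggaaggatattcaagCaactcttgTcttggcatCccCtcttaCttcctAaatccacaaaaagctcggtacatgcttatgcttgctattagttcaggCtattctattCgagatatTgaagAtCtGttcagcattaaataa
SPBPB8B6.05c: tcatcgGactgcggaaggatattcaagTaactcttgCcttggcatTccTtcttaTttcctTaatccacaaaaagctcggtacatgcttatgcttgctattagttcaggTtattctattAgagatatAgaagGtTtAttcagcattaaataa

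SPAC977.12 had 65.5, 55.4 and 64.6 CPM in the mutant libraries and 58.8, 74.4 and 65.1 CPM in the wild-type libraries. Its copy SPBPB8B6.05c had 54.6, 54.8 and 64.2 CPM in the mutant and 41.7, 61.9 and 44.6 CPM in the wild type. Their sum averaged 120 ± 9.35 CPM in the mutant and 116 ± 18.6 CPM in the wild type (SD, n = 3 each), with a log2 fold change of 0.05 (SE 0.14, adjusted p = 0.848). The groups overlapped in both copies and in the sum.

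Some summed copies did not overlap between genotypes. Of all 4987 genes tested, 16.6% had all mutant libraries below all wild-type libraries and 15.5% had them all above. SPAC212.02 and SPBCPT2R1.02 summed to 1.21, 2.31 and 1.48 CPM in the mutant libraries and 17.7, 3.50 and 25.8 CPM in the wild-type libraries (log2 fold change -3.23, adjusted p = 0.0622). The sums of SPAC212.12 with SPAC750.07c, and of SPAC212.03 with SPBC1348.15 and SPBCPT2R1.03, did not overlap either, but were too low to be tested. The sums that follow overlapped, although SPAC977.11 and SPAC750.02c taken singly did not (log2 fold changes of -0.90 and -1.38, adjusted p = 0.178 and 0.0923). The phospholipase genes SPAC977.09c and SPBC1348.10c, identical in coding sequence, summed to 118, 139 and 110 CPM in the mutant libraries and 83.4, 35.5 and 136 CPM in the wild-type libraries (log2 fold change 0.52, adjusted p = 0.459). The CRCB domain genes SPAC977.11 and SPBPB8B6.06c, which differ at 1 of 936 coding bases, summed to 102, 117 and 120 CPM in the mutant and 105, 152 and 120 CPM in the wild type (log2 fold change -0.15, adjusted p = 0.580). SPAC750.02c, SPBC1348.05 and SPBPB2B2.16c, transporters of 485 residues that differ by at most 1 coding base, summed to 3.77, 4.36 and 2.29 CPM in the mutant and 4.41, 4.03 and 5.11 CPM in the wild type (log2 fold change -0.37, adjusted p = 0.440).

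Many genes near the ends had few counts, though not all, as SPBCPT2R1.02 shows. All 5 genes of SPAC212, genes 2 to 7 from the left end of chromosome I, were filtered out. They summed to 0.402, 0.269 and 0.0674 CPM in the mutant libraries and 3.33, 0.941 and 4.26 CPM in the wild-type libraries, so every mutant library was below every wild-type library. A count of 3 in a library, the floor for a count of 0, was 0.158 to 0.191 CPM before TMM scaling. Each of the 5 genes had at most 4 counts (0.215 CPM after TMM scaling) in any mutant library. Apart from SPBPB10D8.05c, the 26 genes that were not tested had 51, 106 and 33 counts together in the mutant and 142, 45 and 326 counts in the wild type, with at most 67 counts for any gene in any library. Among the 5 genes of SPAC212, SPAC212.08c, a GPI-anchored family protein, had 4, 4 and 0 counts in the mutant and 30, 4 and 51 counts in the wild type. It passed the filter without wild-type replicate 2, its lowest wild-type library, and was then called lower (log2 fold change -3.86, adjusted p = 0.00898). Leaving out that library raises its wild-type mean, so this call is no independent support for a fall.

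The remaining clones held 0 calls with all libraries. Without wild-type replicate 2, lower calls were made for 4 of 5 tested genes of SPBPB21E7 and 3 of 11 of SPBPB2B2. There was also 1 lower call among 11 tested genes of SPBC1683, 6 of SPBC1348 and 6 of SPAC1F8 each. Over all 4999 genes tested, that fit called 301 lower. Wild-type replicate 2 was the lowest wild-type library for 4 of 5 tested genes of SPBPB21E7 and 9 of 10 of SPBPB2B2. Leaving it out raises the wild-type mean of such genes, so these lower calls are no independent support for a fall. SPBC1683, the innermost on the left arm of chromosome II, had a median of -0.06 over 11 genes. Its lowest gene was the transporter SPBC1683.03c, at 137, 107 and 144 CPM in the mutant libraries and 233, 282 and 172 CPM in the wild-type libraries (log2 fold change -0.83, adjusted p = 0.0838). Its iron and manganese transporter gene pcl1 was level between genotypes at 347, 344 and 366 CPM in the mutant and 343, 376 and 385 CPM in the wild type (log2 fold change -0.06, SE 0.11). SPAC1F8 had a median of -0.45 over 6 genes, SPBC1348 -0.30 over 6, SPBPB8B6 -0.32 over 4, SPBPB21E7 -0.41 over 5 and SPBPB2B2 -0.28 over 10. Single wild-type libraries moved several of these medians. Without wild-type replicate 2 they were -0.63 for SPBPB21E7, -0.16 for SPBC1348 and -0.01 for SPBC1683, and without wild-type replicate 3 they were 0.12 for SPBPB8B6, -0.04 for SPBPB2B2 and 0.13 for SPBC1683.

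Genes known to bind telomeres or to act on the silencing of subtelomeric genes, in either direction, such as taz1, clr4, swi6 and epe1, were examined beside the ends. Of 33 in the list, 32 were tested and 0 were called by edgeR. Before adjustment, its p was under 0.05 for 3 genes higher and 2 genes lower in the mutant. Over all 4987 genes tested, it was under 0.05 for 459 genes higher and 672 genes lower. The median log2 fold change of the listed genes was 0.24, with 22 of 32 above 0, against a median of 0 over all genes tested. The highest value was that of epe1, which averaged 161 ± 25.1 CPM in the mutant and 85.8 ± 32.9 CPM in the wild type (log2 fold change 0.91, adjusted p = 0.133, not called). The largest single difference ran the other way: sir2, a histone deacetylase gene of silencing, averaged 56.4 ± 5.33 CPM in the mutant and 131 ± 53.4 CPM in the wild type (SD, n = 3 each; log2 fold change -1.21, adjusted p = 0.0706, not called).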

How the data were processed

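RNA was extracted with Trizol, selected with oligo(dT), reverse transcribed, amplified by PCR and sequenced, per the labels' protocols. Tools listed in the submitters' processing notes, without versions or roles, are fastp, HISAT2, Bowtie2, RSEM, StringTie and DESeq2. Neither the genome build nor the use of strand is given in the sources used here. The deposited table holds a whole-number count and an FPKM value per gene and library, and the authors' log2 fold change with its p-value and adjusted p, per the file headers.

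Libraries were grouped by the genotype label. Counts of all 5160 entries entered edgeR 4.0.16 (R 4.3.3) and its quasi-likelihood test, with TMM scaling, the default expression filter (4987 entries kept) and genotype as the only term. Benjamini-Hochberg adjustment ran over all of them, and calls are at an adjusted p under 0.05. Every adjusted p is from this test unless another tool is named. Fold changes are mutant over wild type. Alternatives included DESeq2 1.42.0 and limma 3.58.1 on log2(FPKM + 1) and log2(FPKM + 0.1). Floors cover counting error only, since PCR copies carry no molecular identifiers. No library was a copy of another (replicate pairs differed with chi-square values of 26.4 to 276 per degree of freedom).

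Gene order, strand, overlaps and coding sequences came from RefSeq assembly ASM294v3, which matched all 137 genes. Proteins were compared with BLAST 2.17.0+. No coordinates are given.

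The members and lists were chosen with earlier results of these data known. The genes named were taken from those called, the 6 with the smallest p in each direction, the most abundant and most changed on each clone and near-identical copies, plus genes that carry a symbol; not every gene that meets the rule is described. A few others (SPAC5H10.04, SPAC977.17 and the genes of the stretches) were chosen after their values were seen. A result that the rule names is not reported here.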

Additional observations from a re-analysis of the deposited data

How the results depend on the processing

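The calls were 10 lower and 1 higher with DESeq2 size factors, 11 and 1 with a minimum of 5 CPM in 3 libraries, 9 and 1 without a filter and 9 and 1 with near-identical copies summed (added after seeing the data). The DESeq2 Wald test called 25 lower and 3 higher. Limma on FPKM called 7 lower and 1 higher, or 0 higher with a pseudocount of 0.1 or with all genes; removing the length trend gave 10 and 0, and a threshold of 0.01 gave 1 and 0. Leaving out 1 library gave 0 to 30 lower and 0 to 3 higher calls. The median log2 fold change was -0.29, and -0.42 without a filter or by DESeq2, -0.21 by limma with a pseudocount of 1, -0.24 with 0.1, and -0.33 to -0.18 with 1 library left out; the cause of these shifts was not tested. The fall of dsk1 passed in every alternative. Replicate numbers did not pair the libraries: same-numbered mutant and wild-type libraries correlated at 0.165, -0.358 and -0.187 in their deviations from group means, not every library correlated best with its own number, and a fit with a replicate block called 0 lower and 0 higher among the members and 3 lower among all genes. Uncalled genes changed sign in some settings. By limma with a pseudocount of 0.1, SPAC186.07c was at 0.00, and with the length trend removed SPAC11D3.16c was at 0.03 and SPAC186.02c at 0.01. With 1 library left out, the ranges that crossed 0 were -2.37 to 1.35 for SPAC186.07c, -0.13 to 0.09 for SPAC11D3.16c, -0.38 to 0.21 for SPAC186.02c, -0.68 to 0.09 for SPBC1348.05, -0.12 to 0.92 for SPAC977.08, -0.13 to 1.19 for SPBC1348.10c, -0.22 to 0.03 for SPBPB8B6.06c, -1.85 to 1.44 for SPAC750.01 and -0.86 to 0.18 for SPBPB8B6.02c. Low depth limits most of the 27 genes outside the filter, SPBPB10D8.05c excepted.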

Other observations

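Iron and heme uptake genes lie among these clones without a call. The ferric-chelate reductase gene frp1 had 15.9, 17.2 and 14.8 CPM in the mutant libraries and 15.1, 14.1 and 23.5 CPM in the wild-type libraries (log2 fold change -0.14, adjusted p = 0.726). The siderophore transporter gene str3 had 0.954, 0.807 and 1.55 CPM in the mutant and 0.833, 0.739 and 0.426 CPM in the wild type. The groups overlapped for both genes, and the log2 fold change of str3 was 0.72 (adjusted p = 0.328). The heme import gene shu1 did not pass the filter on low counts.

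The 2 glyoxalase-family genes with the ThiJ domain, hsp3102 and hsp3104, had log2 fold changes of 0.59 (adjusted p = 0.220) and -0.04 (0.918). The spore protein gene isp3 had 25.97, 31.2 and 34.7 CPM in the mutant and 45.4, 23.5 and 53.3 CPM in the wild type, with wild-type replicate 2 below every mutant library.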
